A study of Homo sapiens with 12 samples.

Results

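The comparison described here set 3 arrays of A549 cells transfected with siRNA against SDS3 beside 3 arrays of A549 cells transfected with a non-targeting siRNA, and used 6 of the 12 arrays of the series. A549 is an established human lung cancer cell line. Members of the comparison were the arrays titled for SDS3 and for the SDS3 controls, and each gene was read from its single-gene probe set with the highest mean over those 6 arrays. The other 6 arrays held a FAM60A knockdown and its own 3 non-targeting controls, used below only to show where the SDS3 response differed. All cells received 50 nM siRNA with the Dharmafect 1 reagent 1 day after plating and were lysed 3 days after transfection, and labelled RNA was made from 1 ug of total RNA. The sources used here describe the non-targeting and the FAM60A siRNA, but which SDS3 siRNA was used, and whether it was 1 or several, is not given in them. Both groups are transfected cells, so the contrast carries no untransfected reference. Cells were plated in triplicate wells, per the labels' protocols, and no label says that they came from separate cultures, so p-values measure the spread between these samples.

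SDS3, whose gene symbol is SUDS3, is a subunit of the SIN3 complex. In that complex the SIN3A or SIN3B scaffold carries the histone deacetylases HDAC1 and HDAC2, and DNA-binding factors recruit it to genes whose transcription it can repress. SDS3 is known to hold the deacetylases in an active state on the scaffold, and FAM60A, now called SINHCAF, is another subunit of the same complex. In lung epithelial cells the complex has been studied in connection with TGF-beta signalling, the response that raises matrix and contractile genes.

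Values are log2 of linear array intensities, and a log2 change is the mean of the 3 knockdown arrays minus the mean of the 3 control arrays. A gene is said to have risen or fallen where limma's moderated test gave a Benjamini-Hochberg adjusted p under 0.05 over all 17255 genes tested, a gene being tested where at least 3 of the 6 arrays reached log2 5. By that rule 6605 genes changed, 38.3% of those tested, with 3030 higher (17.6%) and 3575 lower (20.7%). The 3 knockdown arrays lay entirely on one side of the 3 controls for 8667 genes, or 50.2%. Most changes were small: 5304 of the 6605 were under 1.5-fold, and 346 genes (2.01%) changed at least 2-fold, 179 of them up and 167 down. Fold changes of at least 4 were reached by 10 rises and 15 falls. Correlations between arrays ran from 0.998 to 0.999 within groups and from 0.985 to 0.987 between them. Many genes have several probe sets on the array, and some probe sets match sequence shared with other genes. Where averaging a gene's probe sets, or leaving out those of shared sequence, ended its call, gave it one or moved its change by over 1.5 times, that value closes the paragraph.

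**Figure D1:**
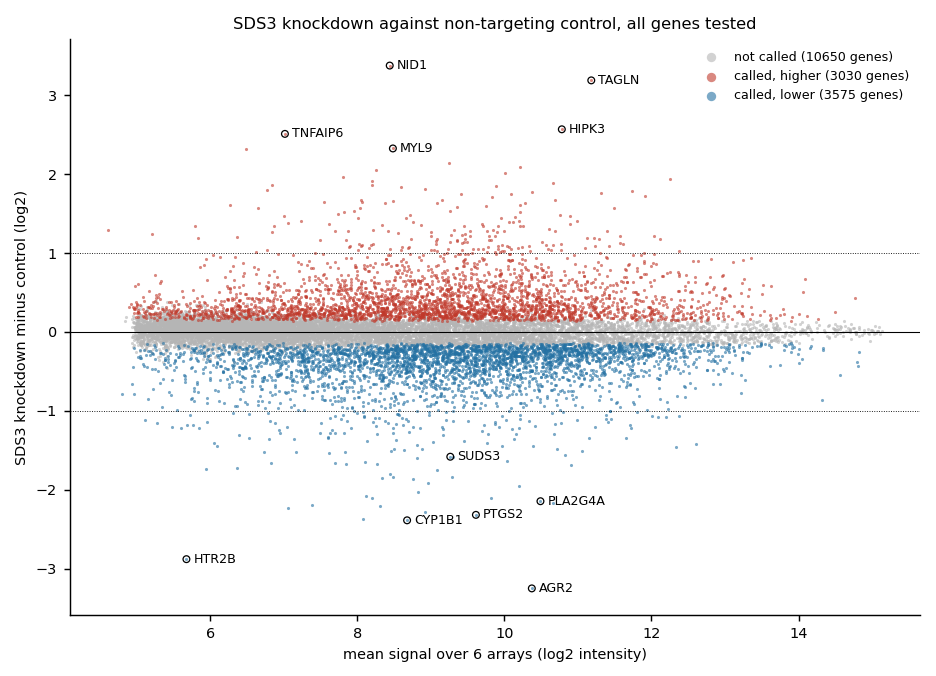
Log2 change after SDS3 knockdown against the mean log2 intensity over the 6 arrays, 1 point per gene tested, with genes called higher in red, called lower in blue and the rest in grey. The 3030 rises and 3575 falls lie mostly between the dotted lines at a 2-fold change, and SUDS3 is among the genes below the lower line.

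The arrays' median intensities lay between 96.8 and 98.3, so the deposited values are already matched between arrays. Bacterial spike-in probe sets averaged 0.22 higher (log2) in the knockdown arrays (exact permutation test, two-sided p = 0.1, the smallest that 3 arrays against 3 allow), the poly-A spikes 0.32 higher (exact p = 0.1) and the hybridisation spikes 0.078 higher (exact p = 0.3). Ribosomal RNA probe sets were also brighter in the knockdowns, by 0.53 for 18S and 0.63 for the 28S type (exact p = 0.1 each), whereas the 3' to 5' differences of ACTB and GAPDH moved by -0.013 and 0.0048. Scaling the arrays to the spike-ins lowers every change by 0.22, and to the poly-A spikes alone by 0.32, which leaves 903 rises and 7136 falls, or 518 and 8759. All 3575 falls kept their direction under each of the 5 other scalings tried. The spike-in scalings lower every change, so no fall could turn under them. Of the 3030 rises, 1543 stayed above 0 in all 5, so each group of genes below is given with the number of its rises that did. Over all genes the median change was 0.0048, and it ran from -0.32 to 0.011 over those scalings. Whether RNA amount per cell, labelling or spike handling moved the spike-ins was not tested.

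Among marker lists, 10 of 11 epithelial genes were measured and tested, with 1 higher (KRT7) and 5 lower. Their summed intensity ran from 73861 to 75808 in the controls and from 68437 to 69177 in the knockdowns. The 10 fibroblast and smooth muscle markers summed to 1211 to 1243 in the controls and 1339 to 1367 in the knockdowns, with 5 higher and 1 lower. Over all genes 17.6% were higher and 20.7% lower. These 10 markers averaged from 5.74 (CNN1) to 7.64 (THY1) in the controls, a range that holds the endothelial and blood cell averages given next. Endothelial markers CDH5, KDR and EMCN and the blood cell marker PTPRC lay under log2 5 on all 6 arrays. The 4 other endothelial markers averaged from 6.71 (VWF) to 7.45 (PECAM1) in the controls, and TEK was called higher (0.22). The 4 other blood cell markers measured averaged from 6.996 (ITGAM) to 7.39 (CD14) in the controls, and CD14 was called lower (-0.28). Keratins KRT7, KRT8 and KRT18 averaged 14.4, 14.2 and 14.9 in the controls. Surfactant genes SFTPB, SFTPC and SFTPD averaged only 7.55, 7.71 and 6.15 there, and did not pass the test, with changes of 0.058, -0.034 and 0.13.

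The targeted transcript was lower in every knockdown array. SUDS3 read 10.11, 10.02 and 10.03 in the controls and 8.48, 8.32 and 8.62 in the knockdowns, and the groups lay more than 1 log2 unit apart. The change of -1.58 (SE 0.077, adjusted p = 1.82e-06) left 33.4% of the control intensity, and the other SUDS3 probe set was called in the same direction. After FAM60A knockdown the same probe set moved by 0.04, a difference of -1.62 between the responses (adjusted p = 1.37e-07).

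The remaining SIN3 complex genes moved much less. Counting SUDS3, of 20 tested members, 8 rose and 2 fell (50% called, against 38.3% of all genes). Of the 8 rises, 3 stayed above 0 under every scaling. The scaffold genes led the rises. SIN3A read 9.51, 9.55 and 9.46 in the controls and 10.08, 10.10 and 10.06 in the knockdowns, without overlap, a rise of 0.57 (adjusted p = 3.52e-05) that stayed positive under every scaling, and its other 2 probe sets were called the same way. SIN3B, the second scaffold, rose by 0.45 (adjusted p = 0.000519), less than after FAM60A knockdown, where it rose by 0.94 (difference adjusted p = 0.00111). SINHCAF rose by 0.35 (adjusted p = 0.00224). Smaller rises in PHF12 (0.30), ARID4B (0.23), ING1 (0.23), SAP30L (0.21) and SAP130 (0.16) turned negative with the poly-A scaling, and those of ARID4B and SAP130 missed the threshold when single arrays were left out (adjusted p up to 0.15), while ARID4B moved by -0.041 without shared-sequence probe sets. The reader of methylated histone H3 in the complex, ING2, fell by 0.36 (adjusted p = 0.000859). The deacetylases themselves did not pass the test: HDAC1 changed by 0.033 and HDAC2 by 0.017, and the histone-binding RBBP4 and RBBP7 by 0.084 and -0.0057. BRMS1, SAP18, SAP30, KDM5A, KDM5B and MORF4L1 did not pass either, with changes between -0.12 and 0.0074. For KDM5A, a histone H3 demethylase, the choice of probe set mattered, since the probe set left after dropping those that may share sequence with other genes rose by 1.23. PHF12, ARID4B and SAP30L did not pass on the mean of all their probe sets, at 0.18, 0.058 and 0.017. SIN3A, SINHCAF and ING1 stood at 0.33, 0.20 and 0.13 on the mean of all their probe sets. SAP130 did not pass without shared-sequence probe sets, at 0.16. SAP18 passed as higher on the mean of all its probe sets, at 0.17, and without shared-sequence probe sets, at 0.29. KDM5A passed on the mean of all its probe sets, at 0.53.

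Outside the complex, the other histone deacetylases held 2 rises and 2 falls among 16 tested genes (25% called, against 38.3% of all genes). SIRT1, an NAD-dependent deacetylase of many nuclear proteins, fell most. Its arrays read 9.35, 9.47 and 9.44 in the controls and 8.56, 8.24 and 8.64 in the knockdowns, every knockdown below every control, a change of -0.94 (adjusted p = 9.28e-05). The class I enzyme HDAC8 fell by 0.44 (adjusted p = 0.000248) and the mitochondrial SIRT4 rose by 0.66 (adjusted p = 0.000684). The remaining call, HDAC7 at 0.20, was lost without control replicate 2 or 3 or knockdown replicate 3 and turned negative under the spike-in scaling.

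The largest rise was in NID1, which encodes nidogen-1, the protein that links laminin to collagen IV in basement membranes. Its arrays read 6.62, 6.75 and 6.89 in the controls and 10.17, 10.14 and 10.07 in the knockdowns. All 3 knockdowns stood above log2 10 and all 3 controls below log2 7, a rise of 3.37 (SE 0.073, adjusted p = 1.34e-07) or 10.4-fold. TAGLN, the actin-binding protein transgelin of contractile cells, read 9.25, 9.68 and 9.83 in the controls and 12.85, 12.80 and 12.68 in the knockdowns, again without overlap, and rose by 3.19 (adjusted p = 9.54e-07). HIPK3, a nuclear serine-threonine kinase, rose by 2.57. TNFAIP6, a hyaluronan-binding secreted protein, read 5.45, 5.94 and 5.88 in the controls and 8.30, 8.39 and 8.12 in the knockdowns and rose by 2.51. MYL9, a regulatory light chain of contractile myosin, read 7.24, 7.38 and 7.34 in the controls and 9.61, 9.67 and 9.66 in the knockdowns and rose by 2.33. The rest of the 20 largest rises lay between 1.80 and 2.32. They included the membrane protein EMP2 (2.14), the intracellular channel protein CLIC4 (2.09), the Eph receptor ligand EFNA1 (2.02), the nicotinic receptor subunit CHRNA9 (1.97), the forkhead factor FOXD1 (1.89), the lymphatic matrix protein CCBE1 (1.86), the tryptophan-degrading enzyme TDO2 (1.86), the ferrireductase STEAP3 (1.85), and also TMEM170B, THG1L, LBH, NKAIN4, CORO2B, PXYLP1 and TSPAN2. Every one of these 20 had knockdown and control arrays that did not overlap, as the choice required. NID1, HIPK3, TSPAN2, CLIC4, TDO2 and NKAIN4 stood at 1.58, 1.08, 1.04, 1.26, 1.09 and 1.22 on the mean of all their probe sets. PXYLP1 stood at 0.99 on the mean of all its probe sets. TAGLN, MYL9 and STEAP3 stood at 0.86, 0.86 and 0.94 without shared-sequence probe sets.

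The largest fall was in AGR2, a protein disulfide isomerase that mucus-secreting epithelium uses to fold its secreted proteins. Its arrays read 12.23, 11.87 and 11.89 in the controls and 8.77, 8.57 and 8.91 in the knockdowns, leaving 10.5% of the control intensity (change of -3.25, SE 0.11, adjusted p = 5.75e-07). HTR2B, a serotonin receptor, read 7.37, 7.01 and 6.96 in the controls and 3.94, 4.47 and 4.29 in the knockdowns. All 3 knockdown arrays lay under the log2 5 limit, so HTR2B entered the test through its controls alone, and only a bound is given: its level was at least 4.33-fold lower in the knockdowns. PTGS2, the inducible cyclooxygenase, read 11.01, 10.70 and 10.61 in the controls and 8.41, 8.14 and 8.81 in the knockdowns, and PLA2G4A, the cytosolic phospholipase that releases its substrate arachidonic acid, read 11.71, 11.49 and 11.48 in the controls and 9.38, 9.29 and 9.58 in the knockdowns. Both were lower in every knockdown array, at -2.32 (adjusted p = 1.06e-05) and -2.14 (adjusted p = 9.54e-07). CYP1B1, a cytochrome P450 that the aryl hydrocarbon receptor induces, fell by 2.39. Other falls among the 20 largest were in the fibrinogen chains FGA (-2.28) and FGG (-2.20), the related FGL1 (-2.11), the apolipoprotein APOH (-1.92), the leukotriene-oxidising CYP4F3 (-2.19), the coenzyme Q methyltransferase COQ5 (-2.17), the inositol transporter SLC2A13 (-2.10), the bile acid transporter subunit SLC51B (-2.08), the glycerol-phosphate acyltransferase GPAT3 (-2.02), the synaptic protein CPLX2 (-1.95) and the tetraspan protein TM4SF20 (-1.86). LINC00513, PPEF1, SLC35A5 and TENT5A completed the 20, with changes of -2.36, -2.23, -1.84 and -1.85. The TENT5A fall rested on its probe set, since the one left after dropping shared-sequence probe sets moved by 0.018. FGA, APOH, SLC2A13, CPLX2 and LINC00513 stood at -1.45, -1.16, -0.68, -1.16 and -1.18 on the mean of all their probe sets. FGA and APOH stood at -0.22 and -0.39 without shared-sequence probe sets.

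**Figure D2:**
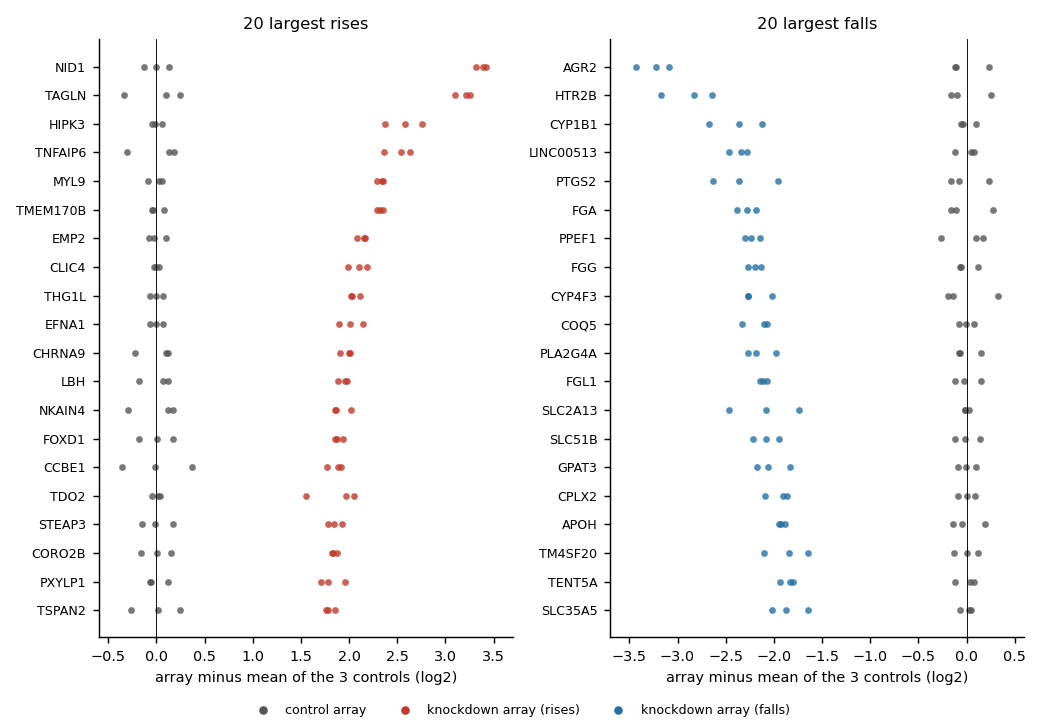
Each array's log2 intensity minus the mean of the 3 controls, for the 20 largest rises and the 20 largest falls; grey points are control arrays, red and blue points knockdown arrays. In every row the 3 knockdown points stand apart from the 3 control points, from TSPAN2 at a mean of 1.80 to NID1 at 3.37 and from SLC35A5 at -1.84 to AGR2 at -3.25; the knockdown points of HTR2B lie under the log2 5 limit.

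Across 34 lists of genes grouped by function, the shares called up and down departed from those of all genes (17.6% and 20.7%) to very different degrees. The 5 highest shares of rises were in the lists of actomyosin, YAP-TEAD, fibrillar matrix, basement membrane and NF-kappa B genes. The 5 highest shares of falls were in the lists of the aryl hydrocarbon receptor, NRF2, liver-type products, secretory epithelium and endoderm factors. Over all lists together, 867 genes were tested, of which 220 rose (25.4%) and 231 fell (26.6%). The share called was thus 52.0%, against 38.3% of all genes. A list's excess over all genes therefore need not be particular to that list. Among all genes tested, the share called was 15.2% in the dimmest of 4 equal bins by mean signal and 52.4% in the brightest. Whether the excess of the lists goes with their signal was not tested. The lists were drawn up with earlier results of these data known, so their counts describe the response and do not test it.

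**Figure D3:**
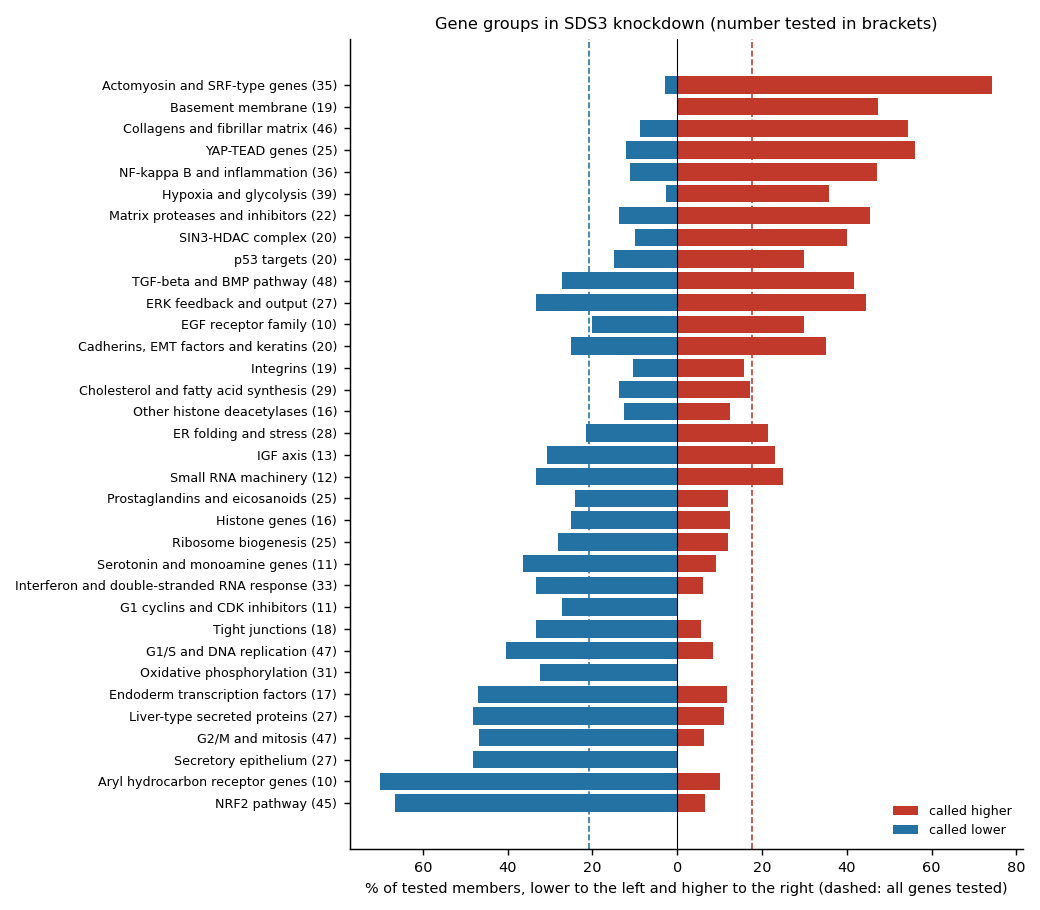
Share of the tested members of each gene list called higher (red, to the right) and lower (blue, to the left) after SDS3 knockdown, with the number tested in brackets. Dashed lines give the shares over all genes tested, 17.6% higher and 20.7% lower; actomyosin genes reach 74.3% higher and NRF2 pathway genes 66.7% lower.

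In the list of collagens and fibrillar matrix, of 46 tested members, 25 rose and 4 fell, with 18 of the 25 rises above 0 under every scaling (median log2 change 0.23, -0.094 to 0.24 over the scalings). COL5A1, a chain that nucleates collagen fibrils, led the collagen chains. It read 10.99, 11.06 and 11.12 in the controls and 12.73, 12.74 and 12.86 in the knockdowns, without overlap, and rose by 1.72 (adjusted p = 5.75e-07). COL1A1, the main chain of type I collagen, read 9.98, 10.33 and 10.33 in the controls and 11.47, 11.39 and 11.11 in the knockdowns and rose by 1.11 (adjusted p = 0.000108). COL6A2 and COL6A1, chains of the microfibrillar collagen VI, rose by 0.86 and 0.72, but neither passed the test on probe sets without shared sequence (0.13 and 0.16). COL3A1 did not pass (-0.15). Among matricellular proteins, which modulate cell contact with matrix, SPARC rose by 1.40 (adjusted p = 1.77e-06), EFEMP1 by 1.09 and thrombospondin THBS1 by 0.86. Fibronectin FN1 changed by -0.018 and did not pass. The proteoglycan LUM fell by 0.85 (adjusted p = 4.32e-06), a fall absent from its other probe set, which stood at 0.12. Of the enzymes that modify collagen, the prolyl hydroxylase subunit P4HA3 rose by 1.28 (adjusted p = 9.54e-07), the lysyl oxidase LOXL2 by 0.55 and the lysyl hydroxylase PLOD3 by 0.52, while LOXL4 fell by 0.40. The fibroblast and smooth muscle markers given above include COL3A1 and LUM, so they are not a separate reading from these genes. Any part of cell types in these values was not tested. In these bulk cultures more or fewer cells of a kind and more or less RNA per cell cannot be told apart. LOXL4 did not pass on the mean of all its probe sets, at -0.12. COL1A1, COL6A2, COL6A1, LUM, P4HA3 and LOXL2 stood at 0.67, 0.49, 0.15, -0.37, 0.84 and 0.23 on the mean of all their probe sets. THBS1 stood at 1.64 without shared-sequence probe sets.

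Basement membrane genes held 9 rises among 19 tested members, 5 of them above 0 under every scaling, and the other 10 did not pass, although 1 was called lower without knockdown replicate 2 or 3. Besides NID1, the paired collagen IV genes COL4A1 and COL4A2 led. COL4A1 read 12.15, 12.41 and 12.48 in the controls and 13.26, 13.24 and 13.33 in the knockdowns and COL4A2 12.62, 12.69 and 12.68 in the controls and 13.52, 13.56 and 13.59 in the knockdowns, in neither case with overlap. Their rises were 0.93 (adjusted p = 4.39e-05) and 0.89 (adjusted p = 3.44e-06), about equal in size. Laminin chains LAMC1, LAMB1 and LAMA5, the partners of nidogen and collagen IV in the membrane, changed by -0.012, -0.07 and -0.14 and did not pass. The list's median was 0.18 (-0.15 to 0.19 over the scalings), against 0.58 after FAM60A knockdown.

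The contractile genes formed the list with the largest share of rises. In the actomyosin list, whose members are largely targets of serum response factor (SRF) and its actin-sensing MRTF partners, of 35 tested members, 26 rose and 1 fell, with 18 of the 26 rises above 0 under every scaling (median log2 change 0.35, 0.03 to 0.36 over the scalings). SRF itself read 8.65, 8.74 and 8.71 in the controls and 9.71, 9.61 and 9.59 in the knockdowns, every knockdown above every control, and rose by 0.94 (adjusted p = 4.09e-06). MRTFB changed by -0.11, which did not pass. Myosin heavy chain MYH9 rose by 0.52 and the kinase of the light chain, MYLK, by 0.40. Tropomyosin TPM1, caldesmon CALD1 and calponin CNN2, which decorate actin filaments, rose by 0.51, 0.56 and 0.56. At focal adhesions, the zyxin gene ZYX read 9.32, 9.13 and 9.26 in the controls and 10.67, 10.63 and 10.74 in the knockdowns and rose by 1.44 (adjusted p = 1.16e-06). TGFB1I1, the paxillin relative Hic-5, rose by 1.11. Talin TLN1 rose by 1.52 and PDLIM7 by 1.07 on shared-sequence probe sets, and on the remaining probe sets they changed by 0.14 and -0.033, which did not pass. ACTB, whose protein is the bulk non-muscle actin, changed by 0.067 and did not pass, and ACTA2, smooth muscle actin, fell by 0.35 (adjusted p = 0.000471), although the mean of its probe sets did not pass (-0.053). Leaving out knockdown replicate 3 raised the list's falls from 1 to 3. SRF, MYLK and TLN1 stood at 0.57, 0.15 and 0.58 on the mean of all their probe sets. TPM1 stood at 1.46 without shared-sequence probe sets.

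Promoters of these genes were searched for the CArG box, the SRF site, on both strands of the 250 bases before each gene's start in RefSeq (GRCh38.p14). The box was present for 6 of 24 risen members with a promoter in the table and for 6 of 32 tested members, against 1.12% of the 13556 tested genes with a promoter. Among all genes that rose at least 2-fold it was present in 1.43%. A match is a string of letters and not a measured site. The 2 sequences below are shown because their genes rose and carry the box, which is in capitals. They are the 100 bases at chr6:43171169-43171268 on the plus strand for SRF and at chr2:105438560-105438659 on the minus strand for FHL2, a LIM protein of focal adhesions that rose by 0.60, each read in the direction of the gene.
SRF: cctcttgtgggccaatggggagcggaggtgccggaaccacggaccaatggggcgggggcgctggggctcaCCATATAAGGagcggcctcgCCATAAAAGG
FHL2: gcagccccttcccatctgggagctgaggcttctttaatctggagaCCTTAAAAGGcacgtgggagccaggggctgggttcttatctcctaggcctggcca

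The YAP-TEAD list holds targets of the YAP and TAZ coactivators, which respond to cell tension, and of 25 tested members, 14 rose and 3 fell, with 12 of the 14 rises above 0 under every scaling (median log2 change 0.30, -0.022 to 0.32 over the scalings). CCN2, connective tissue growth factor, read 11.34, 11.47 and 11.57 in the controls and 12.30, 12.32 and 12.38 in the knockdowns, without overlap. It rose by 0.87 (adjusted p = 1.47e-05) and changed by -0.55 after FAM60A knockdown, a difference of 1.42 (adjusted p = 1.97e-07). AMOTL2, an angiomotin that restrains YAP, rose by 0.93, GADD45B by 0.66, the phosphatase PTPN14 by 0.64 and the receptor kinase AXL by 0.61. TEAD1, the DNA-binding partner of YAP, rose by 0.87 (adjusted p = 1.08e-05). CCN1 and ANKRD1, also common YAP readouts, changed by 0.11 and 0.021 and did not pass, and CCN5 fell by 0.64. The difference from the FAM60A response was called for 15 of the 25 members, 11 of them higher after SDS3 knockdown, where over all genes 27.9% were called. PTPN14 and TEAD1 stood at 0.42 and 0.38 on the mean of all their probe sets. GADD45B stood at 0.43 without shared-sequence probe sets. The 14 rises include TGFB2, read from its brightest probe set (0.99), whereas the mean of all its probe sets changed by -0.023.

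The letters of the TEAD site, GGAATG on either strand, were found in 3 of 12 risen members with a promoter. They were also found in 6 of 17 tested members and in 10.0% of tested genes. The 3 include TGFB2, whose probe sets disagreed in direction. Of genes that rose at least 2-fold 9.29% held it, and of those that fell at least 2-fold 16.5%. The CCN2 window is shown because 3 copies lie in its 250 bases, of which 2 fall inside the 100 bases printed (minus strand, chr6:131951415-131951514) and are in capitals.
CCN2: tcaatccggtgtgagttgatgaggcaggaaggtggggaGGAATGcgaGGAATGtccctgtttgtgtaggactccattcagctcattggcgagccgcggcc

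The TGF-beta and BMP list moved both ways, and of 48 tested members, 20 rose and 13 fell, with 11 of the 20 rises above 0 under every scaling. Among ligands, TGFB1 rose by 0.65 and the matrix protein LTBP2, a member of the latent TGF-beta binding protein family, by 0.79 (adjusted p = 4.47e-05). The brightest TGFB2 probe set rose by 0.99 (adjusted p = 0.00433), and the count of rises includes it. However, 2 others of its probe sets were called lower and the mean of all of them changed by -0.023, so no direction is given for TGFB2. GDF15, a stress-induced ligand of the family, read 10.74, 10.39 and 10.29 in the controls and 8.97, 8.996 and 9.23 in the knockdowns, without overlap, and fell by 1.41 (adjusted p = 2.55e-05). The activin chain INHBB fell by 0.76. Receptors mostly fell: 6 of 10 tested were lower and 2 higher. TGFBR3, ACVR1 and BMPR1B, a co-receptor and a pair of type I receptors, fell by 0.83, 0.73 and 0.56, and TGFBR1 rose by 0.73, a rise that did not pass without shared-sequence probe sets (0.13). SMAD3, the transducer of TGF-beta receptors, fell by 0.30. Of 17 inhibitors and feedback genes 10 rose. SMURF2, a ubiquitin ligase for the receptors and SMADs, read 10.96, 10.97 and 10.96 in the controls and 12.20, 12.15 and 12.18 in the knockdowns, the knockdowns all above the controls, and rose by 1.21 (adjusted p = 7.30e-07). SMAD7 rose by 0.46, SKIL by 0.51 and the ligand-binding FSTL3 by 0.72, while the BMP targets ID1 and ID2 and the pseudoreceptor BAMBI fell by 0.53, 0.81 and 0.57. TGFB1, GDF15 and TGFBR1 stood at 0.35, -0.72 and 0.37 on the mean of all their probe sets. TGFB1 did not pass without shared-sequence probe sets, at 0.057. GDF15 stood at -0.33 without shared-sequence probe sets.

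Cell adhesion to matrix changed in a few genes. Of 19 integrin genes 3 rose and 2 fell (26.3% called, against 38.3% of all genes), with 5 rises when control replicate 1 was left out. The collagen-binding alpha chain ITGA11 rose by 1.03 (adjusted p = 1.07e-05) and ITGA1, another collagen-binding chain, fell by 0.94 (adjusted p = 7.78e-05). The common beta chain ITGB1 changed by 0.13 and did not pass. Among matrix proteases and inhibitors, of 22 tested members, 10 rose and 3 fell, with 7 of the 10 rises above 0 under every scaling. The gelatinases MMP2 and MMP9 rose by 1.34 (adjusted p = 1.30e-06) and 1.04 (adjusted p = 1.58e-05), and the epithelial MMP7 read 9.03, 8.65 and 8.68 in the controls and 7.67, 7.60 and 7.81 in the knockdowns, all knockdowns below all controls, and fell by 1.09 (adjusted p = 5.38e-05). All 4 tested genes of plasminogen activation rose: PLAU by 1.28, its receptor PLAUR by 0.83, the inhibitor SERPINE2 by 0.67 and PLAT by 0.55, each above 0 under every scaling. MMP2 stood at 0.41 on the mean of all its probe sets. ITGB1 passed on the mean of all its probe sets, at 0.19. ITGB1 passed without shared-sequence probe sets, at 0.26.

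Markers of epithelial identity moved in opposite ways. In the list of cadherins, EMT factors and keratins, of 20 tested members, 7 rose and 5 fell, with 6 of the 7 rises above 0 under every scaling. CDH1, epithelial cadherin, read 8.67, 8.60 and 8.51 in the controls and 6.91, 7.05 and 7.25 in the knockdowns. No array overlapped, and CDH1 fell by 1.52 (adjusted p = 3.85e-06), more than after FAM60A knockdown (-0.49, difference adjusted p = 2.56e-05), although its other probe set was not called. The epithelial adhesion protein EPCAM fell by 0.58, and CDH2, neural cadherin, rose by 0.38. Of the repressors of CDH1, SNAI2 rose by 0.53 (adjusted p = 0.00246), ZEB1 by 0.52 (not passing when its probe sets were averaged, at 0.13) and ZEB2 by 0.97, the last absent from its probe set without shared sequence (-0.054), while SNAI1 and TWIST1 changed by -0.094 and -0.051 and did not pass. Vimentin VIM, the filament protein of mesenchymal cells, changed by 0.009 and did not pass, and the keratins KRT8, KRT18 and KRT19 of simple epithelium fell by 0.35, 0.25 and 0.35. Keratin KRT7 went the other way and rose by 0.25 (adjusted p = 0.00386). Tight junction genes held 6 falls and 1 rise among 18 tested (38.9% called, against 38.3% of all genes). The falls made up 33.3%, against 20.7% of all genes, and were led by the polarity protein PARD3 at -1.10 (adjusted p = 2.91e-06). The rise, in CGN, turned negative with the poly-A scaling, and without knockdown replicate 2 the list had 2 rises. None of the 4 claudins CLDN1, CLDN3, CLDN4 and CLDN7 passed (0.16, 0.11, -0.0053 and -0.16), and CLDN2 fell by 0.41. CDH1, ZEB2, KRT19 and PARD3 stood at -0.87, 0.37, -0.17 and -0.63 on the mean of all their probe sets.

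Genes of the secretory epithelium formed a list in which 13 of 27 tested members fell and the other 14 did not pass. Besides AGR2, the ETS factors of secretory and barrier epithelium ELF3 and EHF fell. ELF3 read 10.89, 10.76 and 10.77 in the controls and 9.44, 9.52 and 9.59 in the knockdowns, without overlap, a change of -1.29 (adjusted p = 1.62e-06), and EHF fell by 0.96 (adjusted p = 0.000123). The trefoil peptide TFF1, which mucous cells secrete, fell by 1.07, CEACAM6 by 1.27, the calcium-binding S100P by 1.08 and TM4SF4 by 1.28. Mucins MUC1, MUC2, MUC4, MUC5AC and MUC5B did not pass, with changes between -0.024 and 0.064. The difference from the FAM60A response was called for 11 of the 27, all lower after SDS3 knockdown, where over all genes 27.9% were called. EHF stood at -0.33 on the mean of all its probe sets.

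Proteins that liver secretes, several of which A549 cells are known to make, followed. Of 27 tested members 13 fell and 3 rose, the 3 rises above 0 under every scaling (median log2 change -0.16, -0.48 to -0.15 over the scalings). All 4 fibrinogen-type genes fell. FGB read 10.14, 10.18 and 10.31 in the controls and 8.21, 8.39 and 8.50 in the knockdowns, and its 3 knockdown arrays lay below log2 9 with the controls above log2 10. Its change was -1.84 (adjusted p = 1.13e-06), against -2.28 for FGA and -2.20 for FGG, the chains encoded beside it. Complement C5 and the urea-cycle enzyme CPS1, which is not a secreted protein, fell by 0.65 and 0.63, whereas complement C3 rose by 0.76 and C4BPB by 0.72. Of the transcription factors that drive liver and gut endoderm, of 17 tested members, 2 rose and 8 fell, with 1 of the 2 rises above 0 under every scaling. CEBPA read 9.83, 9.68 and 9.49 in the controls and 8.89, 8.88 and 8.97 in the knockdowns, without overlap, and fell by 0.75 (adjusted p = 0.000145). FOXA1 and FOXA3, pioneer factors of endoderm, fell by 0.57 and 0.51, and GATA6 rose by 0.37. NKX2-1, the lung epithelial factor, did not pass (0.16). GATA6 stood at 0.18 on the mean of all its probe sets.

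The NRF2 list had the largest share of falls among the lists with more than 10 tested genes. NRF2, encoded by NFE2L2, turns on glutathione, thioredoxin and detoxification genes unless KEAP1 marks it for degradation, and A549 cells are known to carry a KEAP1 defect that keeps the pathway active. Of 45 tested members 30 fell and 3 rose, 2 of those 3 above 0 under every scaling (median log2 change -0.26, -0.58 to -0.25 over the scalings). Within glutathione synthesis and use, 9 of 14 fell. GPX2, a glutathione peroxidase of epithelium, read 13.54, 13.15 and 13.24 in the controls and 11.93, 11.75 and 11.999 in the knockdowns, with every knockdown at least 1 log2 unit below every control. Its change was -1.41 (adjusted p = 1.43e-05), larger than after FAM60A knockdown (-0.25, difference adjusted p = 3.35e-05). SLC7A11, the cystine importer that feeds glutathione synthesis, read 12.38, 12.28 and 12.27 in the controls and 11.24, 11.28 and 11.38 in the knockdowns and fell by 1.01 (adjusted p = 3.87e-06). GCLC, the catalytic subunit of the rate-limiting step, fell by 0.72 and the export pump ABCC2 by 0.79.

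In the other branches of the NRF2 list, 4 of 6 genes grouped under thioredoxin and peroxiredoxin fell, led by sulfiredoxin SRXN1 at -0.88 (adjusted p = 1.07e-05). OSGIN1, a gene of neither family, fell by 0.85. Of 13 quinone, iron and aldehyde genes 10 fell. ALDH3A1, an aldehyde dehydrogenase, fell by 1.06, the epoxide hydrolase EPHX1 by 0.91, and the aldo-keto reductase AKR1C3 by 0.86 (adjusted p = 5.61e-06), although AKR1C family members are close in sequence and their probe sets may not tell them apart. HMOX1, heme oxygenase, went the other way and rose by 0.55. NQO1, the classic quinone reductase target, fell by only 0.22 (adjusted p = 0.00444). All 4 of the falls among 5 genes of NADPH supply were under 1.5-fold, with malic enzyme ME1 at -0.56. KEAP1 and NFE2L2 were themselves lower, at -0.49 and -0.40, the latter not passing when its probe sets were averaged (-0.12). The small MAF partner MAFF rose by 0.43. The difference from FAM60A was called for 23 of the 45, 22 of them lower after SDS3 knockdown, where over all genes 27.9% were called. ME1 stood at -0.33 on the mean of all its probe sets.

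**Figure D4:**
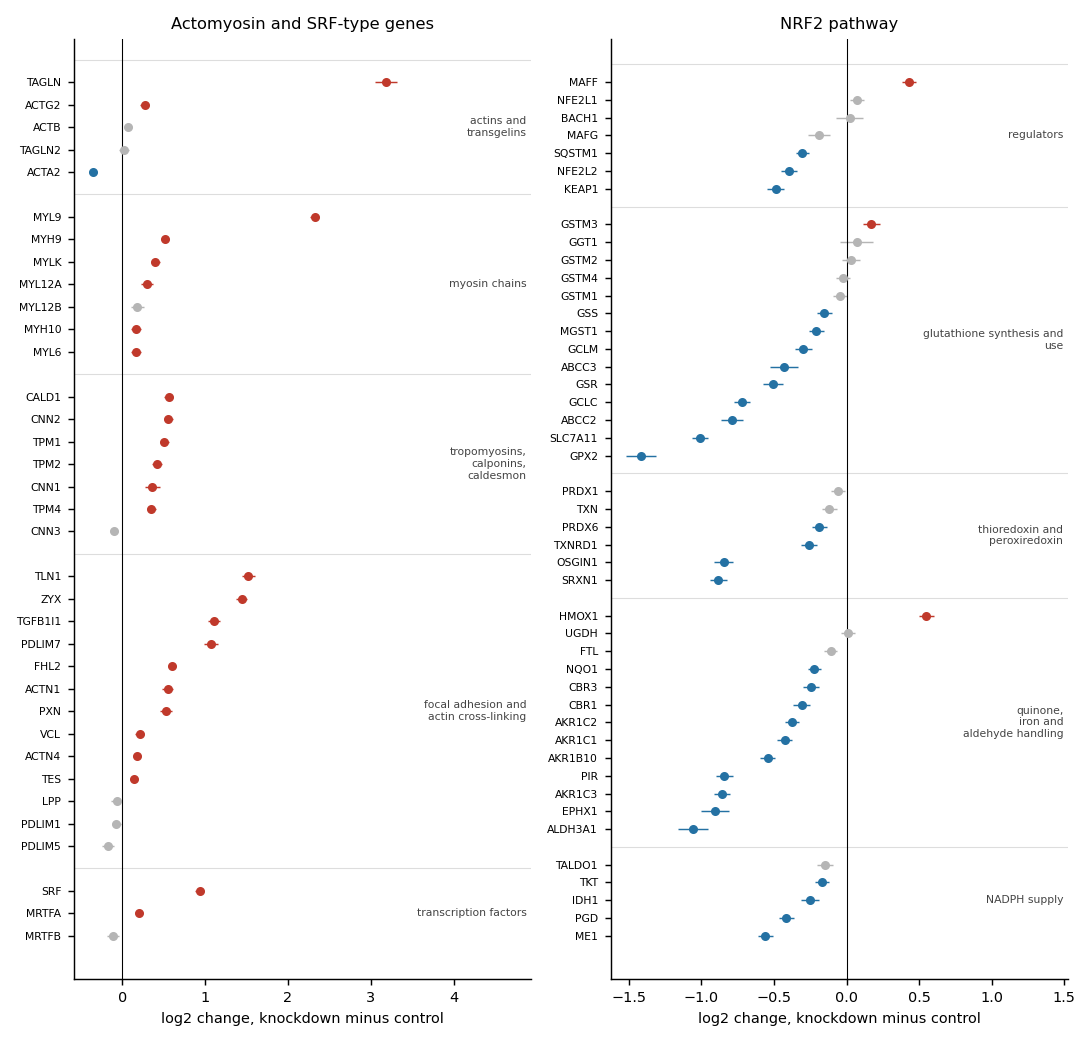
Log2 change after SDS3 knockdown, with its SE, for every tested member of the actomyosin list (left) and the NRF2 list (right), ordered by role; red and blue points passed the test, grey points did not. Points lie mostly right of 0 on the left, up to TAGLN at 3.19, and mostly left of 0 on the right, down to GPX2 at -1.41.

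The antioxidant response element core, TGACNNNGC on either strand, lay within 250 bases before the start for 6 of 22 fallen members with a promoter, for 8 of 35 tested members, and in 12.1% of tested genes. Of all genes that fell at least 2-fold, 9.77% held it. The windows of GPX2 (minus strand, chr14:64942814-64942913) and ME1 (minus strand, chr6:83431135-83431234) are shown for the fallen members with the largest changes among those with a match, with the core in capitals.
GPX2: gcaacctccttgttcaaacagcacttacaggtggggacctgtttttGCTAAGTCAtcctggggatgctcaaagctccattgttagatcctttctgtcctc
ME1: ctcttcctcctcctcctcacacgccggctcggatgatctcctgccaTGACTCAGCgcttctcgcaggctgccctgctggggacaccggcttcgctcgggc

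The aryl hydrocarbon receptor list, which shares ALDH3A1 and NQO1 with the NRF2 list, held 7 falls and 1 rise among 10 tested genes, the rise in ARNT2 (0.35) staying above 0 under every scaling. AHR, the ligand-activated receptor, read 8.76, 8.69 and 8.69 in the controls and 7.70, 7.61 and 7.85 in the knockdowns, the groups apart, and fell by 0.99 (adjusted p = 9.05e-06). Its repressor AHRR fell by 0.67. The target CYP1A1, which oxidises polycyclic compounds, read 7.76, 7.72 and 7.43 in the controls and 6.38, 6.48 and 6.46 in the knockdowns and fell by 1.20 (adjusted p = 1.25e-05). CYP1B1 read 9.97, 9.83 and 9.81 in the controls and 7.51, 7.19 and 7.75 in the knockdowns, and the knockdowns all lay more than 2 log2 units below the controls. AHR fell after FAM60A knockdown as well, by a change of -0.80 (difference adjusted p = 0.257), while for CYP1B1 the responses differed by -1.85 (adjusted p = 5.27e-07).

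Lipid mediator and amine genes changed in a few steps. Among 25 prostaglandin and eicosanoid genes 6 fell and 3 rose, 2 of the rises above 0 under every scaling. These shares were 24% and 12%, against 20.7% and 17.6% of all genes. Beside PTGS2 and PLA2G4A, the prostaglandin E synthase PTGES fell by 0.46 (adjusted p = 0.000426), while PTGS1, the constitutive cyclooxygenase, changed by 0.071 and the receptors PTGER2 and PTGER4 by -0.019 and 0.011, none of which passed. The efflux pump ABCC4, which carries prostaglandins out, rose by 0.60. Of 11 serotonin and monoamine genes 4 fell and 1 rose (2 rose without control replicate 1 or knockdown replicate 3). In that list 45.5% were called, against 38.3% of all genes. HTR1D was the rise, at 0.36, and DDC, which makes serotonin and dopamine from their precursors, fell by 1.12 (adjusted p = 9.69e-06). ABCC4 and DDC stood at 0.22 and -0.65 on the mean of all their probe sets. PTGER4 passed without shared-sequence probe sets, at 0.33.

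Growth factor axes were mixed. In the IGF axis, of 13 tested members, 3 rose and 4 fell (53.8% called, against 38.3% of all genes). Of the 3 rises, 2 stayed above 0 under every scaling, and the binding proteins held the largest changes. IGFBP3 rose by 0.72 (adjusted p = 1.51e-05) and IGFBP7 by 0.58, and IGFBP1, a liver-type binding protein, read 8.54, 8.57 and 8.68 in the controls and 7.75, 7.44 and 7.91 in the knockdowns, without overlap, and fell by 0.90 (adjusted p = 0.000227) but changed by 1.34 after FAM60A knockdown (difference adjusted p = 1.01e-07). In the EGF receptor family, of 10 tested members, 3 rose and 2 fell (50% called, against 38.3% of all genes). All 3 rises stayed above 0 under every scaling. EGFR rose by 0.65, its ligand HBEGF by 0.84 and ERBB2 by 0.39, while the ligand BTC fell by 0.63. Of 27 genes of ERK feedback and output 12 rose, 8 of them above 0 under every scaling, and 9 fell, or 5 without knockdown replicate 2. The AP-1 factors split. JUN read 9.91, 10.01 and 10.11 in the controls and 11.53, 11.50 and 11.46 in the knockdowns, all knockdowns above all controls, and rose by 1.49 (adjusted p = 9.54e-07), and FOS read 8.47, 8.21 and 8.12 in the controls and 7.11, 6.78 and 6.91 in the knockdowns and fell by 1.34 (adjusted p = 2.02e-05). The phosphatase DUSP5 and the inhibitor SPRY2, both induced by ERK, rose by 0.62 and 0.72, and EGR1 changed by -0.044 and did not pass. ERBB2 did not pass on the mean of all its probe sets, at 0.086. IGFBP1, EGFR and HBEGF stood at -0.51, 0.23 and 0.41 on the mean of all their probe sets. JUN stood at 0.87 without shared-sequence probe sets.

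Cell division genes fell more often than they rose. Of 47 G1/S and replication genes 19 fell and 4 rose, 2 of the rises above 0 under every scaling (median log2 change -0.11, -0.44 to -0.10 over the scalings). CDC6, which loads the replicative helicase, read 10.39, 10.36 and 10.32 in the controls and 9.56, 9.52 and 9.60 in the knockdowns, without overlap, and fell by 0.79 (adjusted p = 5.72e-06), GINS3 by 0.78, and the polymerase alpha subunit POLA2 by 0.77, which did not pass without shared-sequence probe sets (-0.22). MCM2, MCM5, PCNA and E2F1 changed by -0.045, 0.012, -0.071 and 0.021 and did not pass. CCNE1 rose by 0.38 and POLD3 by 0.65. Of 47 G2/M genes 22 fell and 3 rose, 2 of the rises above 0 under every scaling (median log2 change -0.18, -0.50 to -0.15 over the scalings), against 37 falls after FAM60A knockdown. The spindle factor TPX2 read 11.96, 11.94 and 11.91 in the controls and 10.86, 10.92 and 11.02 in the knockdowns, groups apart, and fell by 1.00 (adjusted p = 3.42e-06), cyclin CCNA2 by 0.91, the phosphatase CDC25B by 0.84 and the proliferation marker MKI67 by 0.40. The central spindle protein PRC1 rose by 0.90 (adjusted p = 4.25e-06) and the spindle motor KIF11 by 0.71 (adjusted p = 1.02e-05). CDK1 and PLK1 changed by 0.091 and 0.082, which did not pass. The difference between the responses was called for 22 of these 47 genes, where over all genes 27.9% were called. Of the 22, 17 were higher after SDS3 than after FAM60A knockdown. POLA2, CCNE1 and POLD3 stood at -0.32, 0.20 and 0.33 on the mean of all their probe sets. CDK1 passed on the mean of all its probe sets, at -0.18.

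The CHR element, TTTGAA on either strand, was present in 8 of 20 fallen and all 3 risen G2/M members with a promoter, in 20 of 40 tested members whichever way they moved, and in 9.49% of tested genes. PRC1 is shown because it rose while most of its list did not (minus strand, chr15:90994536-90994635, element in capitals).
PRC1: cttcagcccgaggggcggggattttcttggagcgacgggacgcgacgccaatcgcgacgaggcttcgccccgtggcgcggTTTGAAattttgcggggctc

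Among 11 genes of G1 cyclins and CDK inhibitors, 3 D-type cyclin and kinase genes fell (27.3% called, against 38.3% of all genes). CCND3 fell by 0.29, CCND1 by 0.24 and CDK6 by 0.19. The CDK6 call was lost without control replicate 2 or 3 or knockdown replicate 1 or 2 (adjusted p up to 0.0913). Without knockdown replicate 2 or 3, 1 gene of the list was called higher. The inhibitors CDKN1A (p21), CDKN1B (p27) and CDKN2A changed by -0.13, -0.13 and 0.11 and did not pass, although both p21 and p27 were called lower under other fit settings. In the p53 target list, of 20 tested members, 6 rose and 3 fell (45% called, against 38.3% of all genes). Of the 6 rises, 4 stayed above 0 under every scaling. TP53INP1 rose by 0.91 (adjusted p = 8.46e-06) and GADD45A by 0.70, whereas MDM2 and BAX changed by -0.069 and -0.30 and did not pass, BAX being called lower (-0.55) without control replicate 1. CCND3 and CDK6 did not pass on the mean of all their probe sets, at -0.049 and -0.16. CCND1 and TP53INP1 stood at -0.41 and 0.41 on the mean of all their probe sets. CDKN1A passed on the mean of all its probe sets, at -0.13. MDM2 passed without shared-sequence probe sets, at -0.36.

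Inflammatory genes rose more often than they fell. In the NF-kappa B list, of 36 tested members, 17 rose and 4 fell, with 14 of the 17 rises above 0 under every scaling (median log2 change 0.16, -0.16 to 0.18 over the scalings). IL6ST, the shared signalling receptor of the IL-6 cytokines, read 10.40, 10.47 and 10.44 in the controls and 12.31, 12.08 and 12.18 in the knockdowns, every knockdown above every control. It rose by 1.76 (adjusted p = 6.97e-07), and its ligands IL6 and IL11 rose by 0.90 (adjusted p = 0.000421) and 0.86 (adjusted p = 0.00035). The chemokine CCL2 rose by 0.81, where FAM60A knockdown gave -0.66 (difference adjusted p = 1.37e-07), and CXCL1 by 0.71. RELB rose by 0.64 and TRAF1 by 0.72, while the feedback genes NFKBIA and TNFAIP3 changed by 0.14 and -0.0087 and did not pass. The IL-1 receptor IL1R1 fell by 0.74. Of 33 interferon and double-stranded RNA response genes 11 fell (33.3%, against 20.7% of all genes), or 7 without control replicate 2 or knockdown replicate 1. IFIT3 led these falls at -1.06 (adjusted p = 1.08e-05). The 2 rises of that list were each under 0.21 and turned negative under the spike-in scaling; 1 was left without control replicate 2 or knockdown replicate 3 and none without knockdown replicate 2. IL6ST and IL1R1 stood at 0.49 and -0.39 on the mean of all their probe sets.

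Genes of the small RNA machinery, through which siRNA acts, were checked because both groups received siRNA. Of 12 tested, 3 rose and 4 fell, the rises above 0 under every scaling (58.3% called, against 38.3% of all genes). AGO4, an Argonaute, read 7.28, 7.14 and 7.32 in the controls and 8.90, 8.80 and 8.96 in the knockdowns, without overlap, and rose by 1.64 (adjusted p = 8.78e-07). TNRC6A and TNRC6C, the GW182 partners of Argonautes in silencing, rose by 1.11 (adjusted p = 6.13e-06) and 1.37 (adjusted p = 2.35e-06). AGO1 fell by 0.58, and AGO2, the Argonaute that cleaves targets, changed by -0.054 and did not pass. The falls numbered 2 without control replicate 1 or knockdown replicate 1 or 2. AGO4, TNRC6A and TNRC6C stood at 0.65, 0.71 and 0.33 on the mean of all their probe sets.

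In the 6 metabolic and housekeeping lists, from 31.0% to 42.9% of tested members were called, against 38.3% of all genes. In the hypoxia and glycolysis list 14 of 39 tested rose, 10 of them above 0 under every scaling. The lipase inhibitor ANGPTL4 read 9.42, 9.59 and 9.50 in the controls and 10.99, 10.97 and 10.76 in the knockdowns, groups apart, and rose by 1.40 (adjusted p = 2.89e-06), and VEGFA rose by 0.92 (adjusted p = 6.67e-06). NDRG1 rose by 0.72 and EPAS1, which encodes HIF-2alpha, by 0.56, while the glycolytic genes LDHA, PGK1 and ENO1 changed by 0.11, 0.062 and -0.00052 and did not pass. The single fall of the list, EGLN3 at -0.16, was lost without 5 of the 6 arrays in turn (adjusted p up to 0.143). Of 29 cholesterol and fatty acid genes 5 rose, 3 of them above 0 under every scaling, and 4 fell. INSIG1, a brake on sterol synthesis, fell by 0.58, and STARD4, a cholesterol carrier, rose by 0.92. Of 28 ER folding and stress genes 6 rose, 1 of them above 0 under every scaling, and 6 fell. The stress factor ATF3 read 9.09, 9.19 and 9.11 in the controls and 7.88, 7.72 and 7.94 in the knockdowns and fell by 1.28 (adjusted p = 2.52e-06), although another of its probe sets was called higher, and the chaperone CANX fell by 0.77 (adjusted p = 8.25e-05), while HSPA5 and DDIT3 changed by -0.043 and 0.037 and did not pass. VEGFA, EPAS1, EGLN3 and ATF3 stood at 0.43, 0.30, -0.66 and -0.52 on the mean of all their probe sets. HSPA5 passed on the mean of all its probe sets, at 0.21. EGLN3 did not pass without shared-sequence probe sets, at -0.16. ATF3 stood at -0.49 without shared-sequence probe sets.

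Of 31 respiratory chain and ATP synthase genes 10 fell, or 6 without knockdown replicate 1, and the others did not pass, with the complex I subunit NDUFV2 lowest at -0.58 (adjusted p = 0.000148). Of 25 ribosome biogenesis genes 7 fell, or 4 without control replicate 2, and 3 rose, 2 of them above 0 under every scaling: POLR1A, the largest subunit of RNA polymerase I, by 0.75 (adjusted p = 1.29e-05) and its factor UBTF by 0.59. Of 16 histone genes 4 fell and 2 rose, or 1 without control replicate 2 or 3 or knockdown replicate 1, and both rises turned negative with the poly-A scaling. POLR1A and UBTF stood at 0.42 and 0.13 on the mean of all their probe sets.

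The response to SDS3 knockdown differed from that to FAM60A knockdown, each against its own controls, for 4812 genes (27.9% of those tested), 1892 of them higher and 2920 lower after SDS3 knockdown. The experiments share no array, and batch and target cannot be told apart between them. Several leading genes moved in the same direction in both. NID1 rose by 3.37 and 3.27 (difference adjusted p = 0.642), HIPK3 by 2.57 and 2.42 (difference adjusted p = 0.357), and FGA changed by -2.28 and -1.93 (difference adjusted p = 0.125). The difference for NID1 was 0.10 with an SE of 0.15, that for HIPK3 0.15 with an SE of 0.11.

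Among genes that SDS3 knockdown moved at least 2-fold, differences on the lower side included TM4SF20, which fell by 1.86 after SDS3 knockdown and rose by 0.48 after FAM60A knockdown (difference -2.35, adjusted p = 3.14e-07). ACO1, the cytosolic aconitase that also binds iron-responsive RNA, likewise fell by 1.18 and rose by 0.63, but its probe set without shared sequence changed by -0.028 after SDS3 knockdown. DIO2, which activates thyroid hormone, fell by 1.13 and rose by 0.56 (difference adjusted p = 3.64e-07). PLCXD3 fell by 1.73 and changed by -0.025, and SLC2A13 fell by 2.10 against a change of -0.41 (differences -1.70 and -1.69). On the higher side, TNFAIP6 differed by 1.48 (adjusted p = 6.59e-06) and FOXD1 by 1.41 (adjusted p = 3.13e-07). SPOPL, a substrate adaptor of the cullin 3 ubiquitin ligase, rose by 1.34 after SDS3 knockdown and changed by -0.14 after FAM60A knockdown. The nuclear receptor corepressor LCOR rose by 1.16 against -0.15, OGFRL1 by 1.05 against -0.41, and the homeobox factor CUX2 by 1.34 against 0.11. ODAPH lay under the log2 5 limit in all 3 controls and HTR2B in all 3 knockdowns, so each entered the test through 1 group alone and its difference between the responses is not measured; ODAPH was at least 1.77-fold higher in the knockdowns. SERPINB9, an inhibitor of granzyme B, fell in both, by 1.11 after SDS3 knockdown and more after FAM60A knockdown (-2.36). ACO1, DIO2, PLCXD3, OGFRL1 and CUX2 stood at -0.60, -0.55, -1.11, 0.70 and 0.66 on the mean of all their probe sets. DIO2 stood at -0.42 without shared-sequence probe sets.

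**Figure D5:**
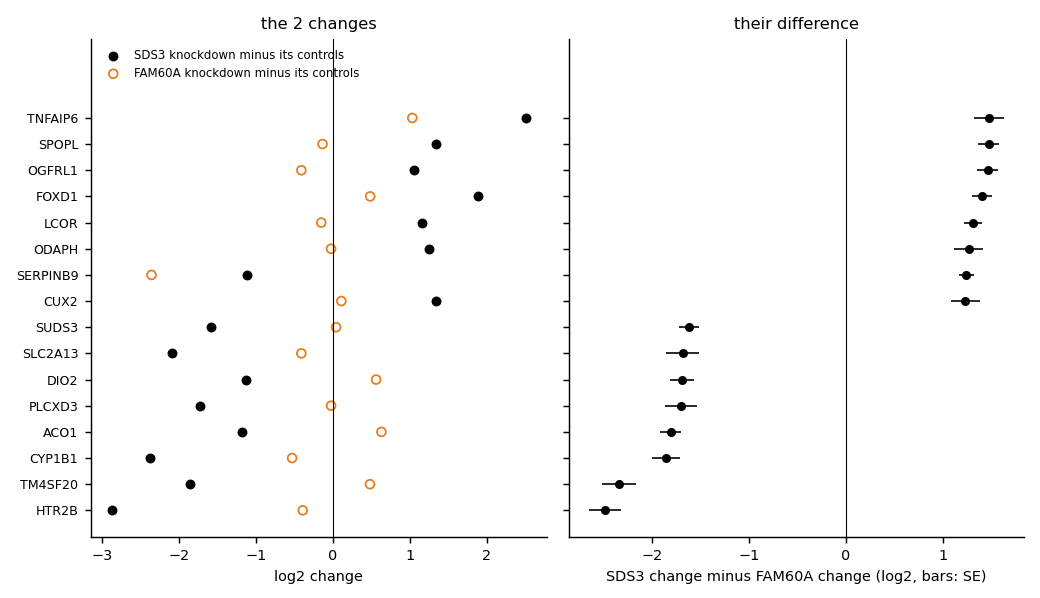
Left, log2 change of 16 genes after SDS3 knockdown (black) and after FAM60A knockdown (open orange), each against its own 3 controls. They have the largest differences between the responses among genes that changed at least 2-fold after SDS3 knockdown. Right, the difference with its SE. For HTR2B and ODAPH 1 group lay under the log2 5 limit, so their points are not measured sizes. TM4SF20, ACO1 and DIO2 lie on opposite sides of 0 in the 2 experiments, and SUDS3 itself is low in the SDS3 knockdown and near 0 in the other (-1.58 and 0.04).

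Probe sets of 1 gene did not always move together. Of 3827 called genes with another measured probe set, 2042 had one called in the same direction, 172 had others called only in the opposite direction and 1613 had none called. At changes of at least 2-fold, 168 of 209 such genes had a second probe set called the same way. For 267 genes, single-gene probe sets were called in opposite directions. The strongest were PSPC1, a paraspeckle protein, with probe sets at 0.86 and -0.88, the glycosyltransferase subunit ALG13 (0.83 and -0.67), the splicing regulator HNRNPLL (0.65 and -1.18), the mitochondrial arginase ARG2 (0.72 and -0.58), the tumour suppressor FLCN (0.56 and -0.59) and the intramembrane protease SPPL2A (2.18 and -0.54). For these genes no single direction is given.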

How the data were processed

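Biotin-labelled RNA from 12 samples was hybridised to Affymetrix arrays of 54675 probe sets, and the authors deposited 1 linear intensity per probe set and array; the submitters' processing notes name RMA without settings. Log2 of the deposited intensity was taken here with no further normalization. Of the probe sets, 41097 were paired with 1 gene, 1801 with several and 11777 with none listed. Where several single-gene probe sets represented a gene, the brightest on average in the SDS3 arrays was kept, which gave 19775 genes, and the 17255 reaching log2 5 on at least 3 arrays were tested. Knockdown and control were compared with limma 3.58.1 (lmFit, eBayes, Benjamini-Hochberg adjustment, R 4.3.3) on those 6 arrays alone. The difference from the FAM60A response was fitted as an interaction over all 12. Means of control probe sets were compared by exact permutation, and 3 arrays per group limit the precision. The fit was tested on simulated data.

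Genes were named by rule: all SIN3 complex genes, the 20 largest rises and falls without overlap, and up to 4 called members per role of each list. The rule also named 6 genes with opposed probe sets and the 8 largest called differences from FAM60A in each direction. Those differences were taken only among genes that changed at least 2-fold after SDS3 knockdown. Other genes named, among them all that did not pass outside the SIN3 complex, were chosen after their values were seen. Members and lists were chosen with earlier results of these data known. Alternatives covered filters, probe set choice, scaling, fit settings and leaving out each array. The poly-A and hybridisation scalings were added after seeing the data. RefSeq promoters (GRCh38.p14) gave the sequences, with 13556 of the tested genes matched by symbol. Other strings were searched too (share of tested genes in brackets). HNF1 sites lay in 0 of 19 tested liver-type members with a promoter (0.037%). E2F sites lay in 3 of 18 fallen and 16 of 40 tested G1/S members (3.89%). The dioxin response element core lay in 1 of 7 aryl hydrocarbon receptor members (5.59%), and CCAAT boxes in 29 of 40 G2/M members (34.0%). Over all lists AP-1 sites, GC boxes and TATA boxes lay in 5.33%, 66.7% and 12.4% (4.68%, 59.9% and 7.13%).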

Additional observations from a re-analysis of the deposited data

Results flagged for a closer look

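Control probe sets outside the gene comparison were brighter in the SDS3 knockdown arrays than in their controls. The poly-A spike-ins were 0.32 higher on the log2 scale, the 18S ribosomal probe sets 0.53 higher and the 28S-type ribosomal probe sets 0.63 higher, and in each case every knockdown array lay above every control array (exact permutation test, two-sided p = 0.1, the smallest possible with 3 against 3). The response to SDS3 knockdown differed from that to FAM60A knockdown for 4812 genes by limma's interaction test.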

How the results depend on the processing

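Scaling moved the counts most. Rises numbered 3030 as reported, 903 with the spike-in scaling, 518 with the poly-A scaling and 1763 with the hybridisation scaling, and falls numbered 3575, 7136, 8759 and 4469. Rises made up 45.9% of calls as reported and 11.2%, 5.58% and 28.3% under those scalings. Genes changed at least 2-fold numbered 346, or 207 with the mean of all probe sets and 563 with the poly-A scaling. The other counts of genes called stayed within 1.5 times under the other settings, and calls ran from 5343 to 6439 as single arrays were left out. Of the 229 called genes named here, 30 lost their call or changed direction under at least 1 setting other than the spike-in scalings.

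Named genes whose call or size depended on the probe set are given in the report, and some changed sign. With the mean of all probe sets this held for ALG13 (0.12), ARG2 (0.071), CDK1 (-0.18), FLCN (-0.072), HSPA5 (0.21), KDM5A (0.53), PSPC1 (-0.086), SAP18 (0.17), SPPL2A (0.69) and TGFB2 (-0.023). Without shared-sequence probe sets it held for ARID4B (-0.041), KDM5A (1.23), LUM (0.12), PDLIM7 (-0.033), SAP18 (0.29), TENT5A (0.018) and ZEB2 (-0.054), and with the highest mean over 12 arrays for FLCN (-0.59). With the spike-in scaling HDAC7, SAP130 and SAP30L became -0.013, -0.058 and -0.0066. With the poly-A scaling ARID4B, CGN, HDAC7, ING1, KDM5B, PHF12, SAP130 and SAP30L became -0.091, -0.014, -0.12, -0.095, -0.32, -0.025, -0.16 and -0.11. Each such change follows from the probe sets or scaling that the setting uses, and no further cause was tested. Among named genes that did not pass as reported, CDKN2A (0.18) and MRTFB (-0.19) were called without knockdown replicate 3, and CLDN1 (0.22) and NFKBIA (0.19) without knockdown replicate 2.

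With the replicate number as a replicate block, 6148 genes were called. Same-numbered arrays did not deviate together (correlations -0.03, 0.04 and -0.08), so the numbers were not taken as a pairing. When genes were divided into 4 equal bins by mean signal, the share called was 15.2%, 32.1%, 53.5% and 52.4% from the dimmest to the brightest bin; the cause was not tested.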
